A study of Mus musculus with 75 samples.

Results

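The genes described here were 9 markers of pillar cells and Deiters cells, namely Lgr5, Ngfr, Cd44, Fabp3, Npy, Fibin, Slc1a3, Aqp4 and Bace2. They were a list of gene names from what is known of the 2 cell types, chosen with earlier results of these data known. Their rows were read among 55291 genes in the raw count table of 75 single cells of the mouse cochlea. The study asked whether adult supporting cells (SCs) that are made to express Atoh1 and Ikzf2, the transcription factors that specify hair cells (HCs) and outer hair cells (OHCs), turn into OHCs. The question for these 9 genes was which of them a SC kept and which it lost once both factors had been switched on.

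All cells carried Tdtomato, were picked by hand under a fluorescence microscope from C57BL/6 mice and were sequenced 1 library per cell by a Smart-Seq kit, which copies whole messages and uses no molecular identifiers, so that counts are reads. The 17 P30_WT OHCs came from Slc26a5-CreER/+; Ai9/+ mice given tamoxifen at P20 and P21 and collected at P30. The 16 P60_WT SCs came from Fgfr3-iCreER+; Ai9/+ mice given tamoxifen at P30 and P31 and collected at P60. The other 42 cells were taken at P60 from the model named Fgfr3-Atoh1-Ikzf2-DTR. There Fgfr3-iCreER, activated at P30 and P31, recombined a CAG-LSL-Atoh1 transgene and a CAG-LSL-Ikzf2 allele at Rosa26, and diphtheria toxin, given at P36 at 20 ng/g, was used to kill the OHCs through a receptor placed in Slc26a5. The authors sorted these 42 cells after sequencing, by Myo7a and by Prestin (Slc26a5), into 15 SCs failing to become HCs (failing SCs for short), 16 nascent HCs and 11 OHC-like cells, and none of the 9 markers entered that sorting. Fgfr3-iCreER labels mainly pillar and Deiters cells in the adult organ of Corti, and which of the 2 a picked cell had been is not recorded. The titles and column headers of the cells name type and number and no library series. The series A to E used below for the induced cells are thus a grouping of libraries that these labels do not document. Each wild-type group was taken as 1 series. The P60_WT SCs had no Atoh1, Ikzf2 or DTR transgene and no toxin, and their libraries were taken as a series of their own. The transgenes, the loss of OHCs and the library series therefore cannot be told apart in comparisons with them. The number of mice is not given in the sources used here, so p-values measure the spread between cells.

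Pillar cells form the walls of the tunnel of Corti and Deiters cells stand beneath the OHCs and hold them at base and apex. Both are born from the same progenitors as HCs and are kept from the HC fate by Notch signalling. Lgr5 is best known from the young organ, in which Lgr5+ SCs can still give rise to HCs, and its expression becomes more restricted as the organ matures.

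The sequences before Fibin and Slc1a3 are shown because these genes moved in opposite ways in the induced cells. Fibin was the marker that was lost in all 3 induced types and Slc1a3 was one that appeared in them. The bases just before the first annotated exon are printed 5′ to 3′ on the gene's strand from the RefSeq promoter table of GRCm38.p6. Fibin is at chr2:110363184-110363243 on the minus strand, where 60 bases remained after 190 that lie in annotated exons were left out, and Slc1a3 is at chr15:8710808-8711057, also on the minus strand, with all 250 bases. Capitals mark matches on either strand to CANNTG, the E-box read by basic helix-loop-helix factors such as Atoh1, or to GGGAA, the core of Ikaros family sites.
Fibin: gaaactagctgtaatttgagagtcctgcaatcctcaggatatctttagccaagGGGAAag
Slc1a3: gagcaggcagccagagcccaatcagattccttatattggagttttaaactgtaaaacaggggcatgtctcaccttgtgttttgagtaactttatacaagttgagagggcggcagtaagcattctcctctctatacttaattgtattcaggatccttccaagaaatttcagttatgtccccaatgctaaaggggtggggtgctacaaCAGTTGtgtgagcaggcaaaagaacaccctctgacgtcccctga
The Fibin stretch held 1 GGGAA and no CANNTG, and over 32851 windows of the same table cut to 60 bases 17.4% held GGGAA and 23.2% held CANNTG. The Slc1a3 stretch held 1 CANNTG and no GGGAA, beside 66.2% and 56.2% of the windows at 250 bases. Of the 9 genes, 6 had an entry in the table. In the Cd44 and Npy windows of 250 bases there were 3 and 2 matches to GGGAA and none to CANNTG, and the 213 bases of Ngfr held 1 CANNTG and no GGGAA. None of these matches overlapped another, and a match in a window is a description of letters only.

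The label of the SCs was checked first. Levels are CPM, the reads of a gene per 1e+06 reads of its library after TMM scaling, and a marker counted as detected in a cell at 1 CPM or more of the unscaled library. Only Fabp3, Fibin and Bace2 were detected in all 16 P60_WT SCs. Lgr5 was detected in 1 of them, and Ngfr, Npy, Cd44, Aqp4 and Slc1a3 had no count in any of the 33 wild-type cells, which for the 16 SCs allows a share of up to 18.8% of cells with a read. As a set, then, the 9 names did not mark the adult SCs picked here, and 3 of them did. In 15 of the 16 SCs the detected markers were Fabp3, Fibin and Bace2, and the 16th also had Lgr5. The P30_WT OHCs had 0 to 2 of the markers, and in 13 of 17 the marker was Fabp3 alone.

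The 3 induced types differed in how many markers a cell held. The failing SCs had 1 to 4 with a median of 3, the nascent HCs 0 to 4 with a median of 1.5 and the OHC-like cells 0 to 4 with a median of 1. Of the failing SCs 4 were in library series A, 10 in C and 1 in E. Series B and D held only nascent HCs and OHC-like cells, so type and series cannot be fully told apart in these numbers. The sets were no longer uniform. Among the 15 failing SCs the most frequent set, Lgr5 with Slc1a3 and Bace2, was found in 3 cells. Among the 16 nascent HCs 7 had Lgr5 alone and 3 had Lgr5 with Slc1a3 and Bace2. Among the 11 OHC-like cells 3 had Lgr5 alone, 3 had Lgr5 with Fabp3, 2 had Fabp3 alone and 1 had none of the 9.

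**Figure D1:**
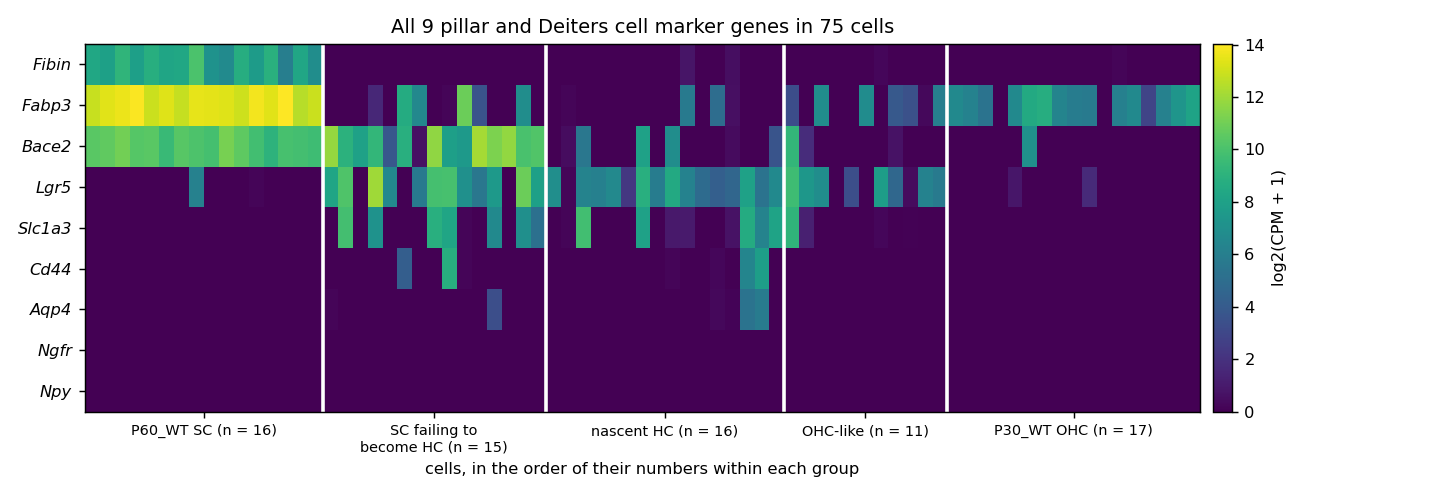
Levels of the 9 markers (rows) in each of the 75 cells (columns, grouped by cell type), as log2(CPM + 1). Fabp3, Fibin and Bace2 fill the 16 P60_WT SCs, Lgr5 is spread over the induced types, and the rows of Ngfr and Npy are empty.

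The markers that passed the filter on low counts were Lgr5, Fabp3, Fibin, Slc1a3 and Bace2, so 5 of 9 were tested, among 11443 genes in all. Cd44, Aqp4, Ngfr and Npy did not pass. Fibin could pass only through the P60_WT SCs, and Lgr5 and Slc1a3 only through the induced cells. The counts and medians over the 5 are therefore descriptions. A gene was called when the quasi-likelihood test of edgeR, adjusted by Benjamini-Hochberg, gave an adjusted p under 0.001 and the log2 fold change was over 2 in size. Against P60_WT SCs, 3 of the 5 were lower in P30_WT OHCs (Fabp3, Fibin and Bace2), where the lower calls made up 10.3% of all tested genes. In OHC-like cells Slc1a3 was higher and Fabp3 and Fibin were lower, where 5.77% of genes were called higher and 0.655% lower. The same 3 markers were called in the same directions in nascent HCs, where 6.31% of genes were called higher and 1.46% lower. In failing SCs Lgr5 and Slc1a3 were higher and Fibin was lower, beside 3.38% of genes called higher and 0.787% lower. These comparisons share the 16 SCs. OHC-like cells exceeded P30_WT OHCs in 2 markers, Lgr5 and Slc1a3, beside 10.0% of genes called higher. These groups also differed in age, genotype, toxin and library series, which cannot be told apart in this comparison.

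Among the induced types no marker was called by edgeR's quasi-likelihood test. Between OHC-like cells and failing SCs 1.03% of all genes were called in either direction, 1 of the 5 markers had an unadjusted p under 0.05, DESeq2 called 0 and limma 1. Between nascent HCs and failing SCs 1.35% of genes were called, 4 of the 5 had an unadjusted p under 0.05, and DESeq2 and limma called 1 each. Between OHC-like cells and nascent HCs 0.0787% of genes were called, 0 of the 5 had an unadjusted p under 0.05, and DESeq2 and limma called 0. The shares are those of edgeR's test, and none are given for DESeq2 and limma, so their counts are descriptions. The median log2 fold change of the 5 against P60_WT SCs was -6.49 in P30_WT OHCs, -4.41 in OHC-like cells, -5.50 in nascent HCs and 0.25 in failing SCs, where the medians over all tested genes were -0.16, 0.32, 0.34 and 0.25.

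Fibin, a secreted protein named after zebrafish fin buds (chr2:110360917-110363183, 1 exon), was detected in P60_WT SCs alone. Its level in the 16 SCs was 337.4 ± 242.2 CPM (SD), from 62.9 to 1064 with a median of 311.3. In the other 59 cells it was detected in none. The 17 P30_WT OHCs held 1 count in all, the 11 OHC-like cells 2 counts in a single cell and the 16 nascent HCs 17 counts in 2 cells, while the 15 failing SCs held none. No cell outside the SCs came near the lowest SC.

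From the pooled counts, Fibin in P60_WT SCs was 38900 times that in P30_WT OHCs (95% counting interval 6970 to 1530000), 18500 times that in OHC-like cells (5130 to 153000) and 3600 times that in nascent HCs (2250 to 6170). In failing SCs it was at least 787-fold lower, taking 3 counts per cell as the floor. These intervals cover counting error only, treat reads as independent counts and leave out the spread between cells. The adjusted p of edgeR's quasi-likelihood test was 2.24e-15 for P30_WT OHCs, 3.13e-11 for OHC-like cells, 4.71e-13 for nascent HCs and 2.78e-14 for failing SCs. Because Fibin passed the filter on low counts only through the SCs, the filter fixed the direction of these calls, and they describe the gap against the spread between cells and are no independent support. The fit without a filter also called Fibin lower in the 4 groups. Fibin was thus low in the induced cells of each library series, A to E, with a highest level of 0.760 CPM.

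**Figure D2:**
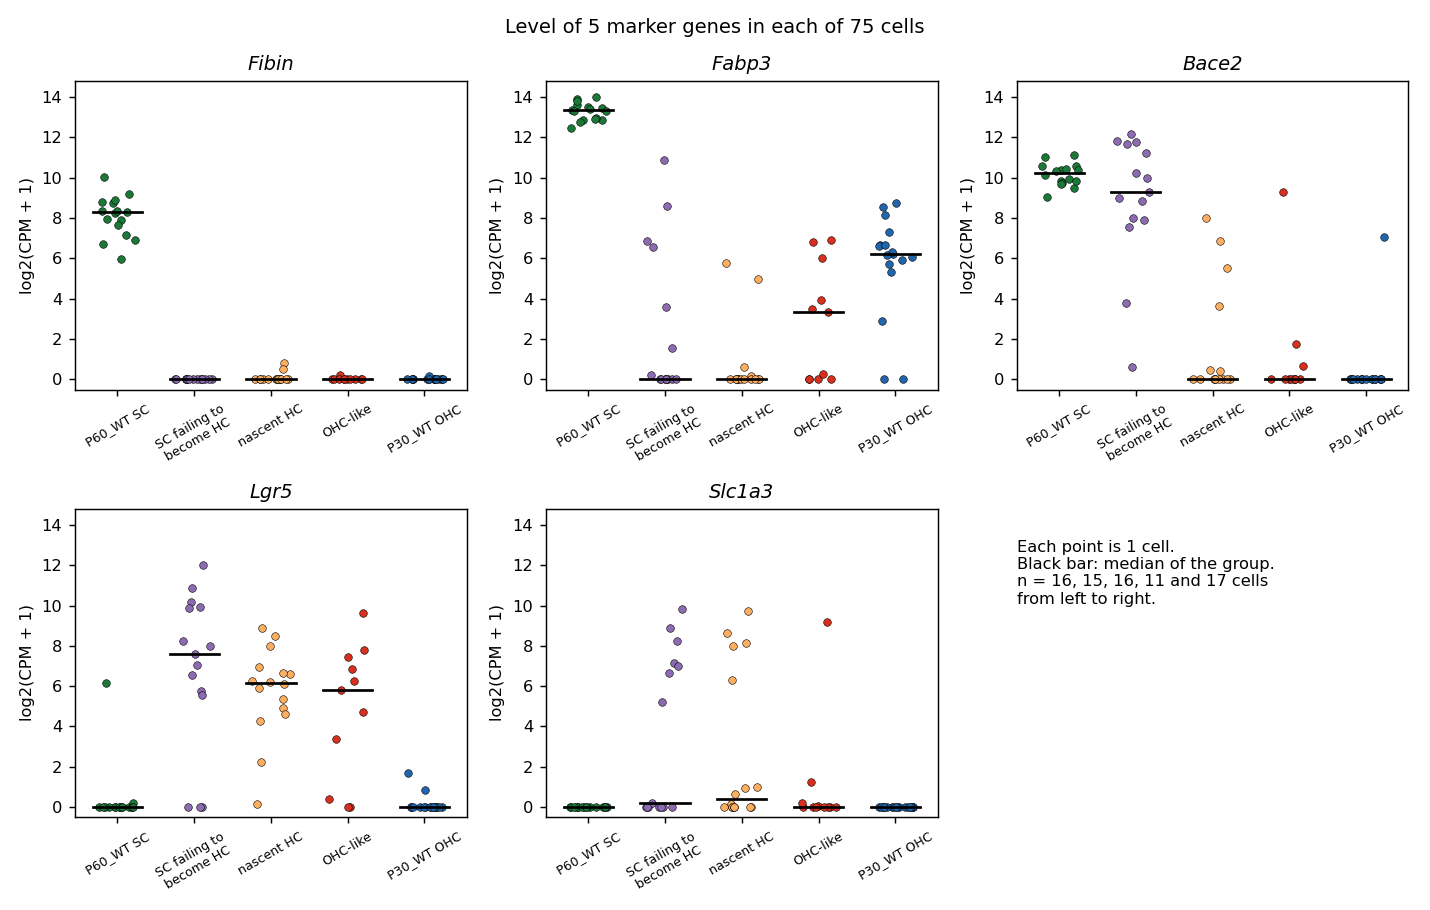
Level of Fibin, Fabp3, Bace2, Lgr5 and Slc1a3 in each cell, as log2(CPM + 1), 1 point per cell, with a bar at the median of each of the 5 groups. Fibin lies at or near 0 outside P60_WT SCs, Fabp3 is below the SC range in the other groups, and Bace2 in failing SCs spans and exceeds the SC range.

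Fabp3, a fatty acid binding protein of the cytoplasm (chr4:130308595-130315463), had the highest level of the 9 in P60_WT SCs. Per length its mean there was 33320 ± 9320 TPM, the length-scaled share of transcripts, against 407.3 ± 145.0 TPM for Bace2 and 397.9 ± 303.4 TPM for Fibin (SD, n = 16). In CPM it was 10450 ± 3134 (SD, n = 16), from 5752 to 16610 with a median of 10520. All 59 other cells were below the lowest SC.

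The remaining level of Fabp3 was not equal in the other groups. It was detected in 15 of 17 P30_WT OHCs, at 116.4 ± 124.8 CPM (SD), from 0 to 425.1 with a median of 72.5. It was found in 6 of 11 OHC-like cells, at 29.6 ± 45.6 CPM (median 9.12, highest 117.8), and in 2 of 16 nascent HCs, at 5.35 ± 15.1 CPM (median 0, highest 54.4). It was detected in 6 of 15 failing SCs, at 164.7 ± 479.1 CPM with a median of 0, and 1 of these cells stood apart at 1856 CPM. The OHCs therefore kept low Fabp3 in nearly all cells, whereas most nascent HCs had none.

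The log2 fold change of Fabp3 against P60_WT SCs was -6.49 (SE 1.42, edgeR's quasi-likelihood test, adjusted p 0.000171) in P30_WT OHCs, -8.46 (SE 1.90, adjusted p 0.000518) in OHC-like cells and -10.92 (SE 1.75, adjusted p 1.50e-06) in nascent HCs, calls that held in 17, 17 and 18 of 19 other settings. In failing SCs it was -5.99 (SE 1.47, 95% interval -8.92 to -3.06) with an adjusted p of 0.00209, which missed the threshold although every cell was below the SC range. That result rested on few cells. Without the cell at 1856 CPM (cell 10) it was -7.87 with an adjusted p of 0.000211 and passed, and over its 19 other settings the adjusted p ran from 1.93e-14 to 0.961, with 7 calls. OHC-like cells and P30_WT OHCs differed by -1.98 (95% interval -4.69 to 0.74, adjusted p 0.418), and nascent HCs and failing SCs by -4.93 (adjusted p 0.0146, range over 19 settings 0.000597 to 1), so neither difference passed.

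Some libraries stood apart beside this result. The summed level of 38 other SC genes was 29930 to 49280 CPM in P60_WT SCs and 2959 to 57530 CPM in failing SCs, and 3 of the latter, cells 6, 7 and 10 of series C, had 2959, 5285 and 4151 CPM. The same 3 cells held 393.0, 93.4 and 1856 CPM of Fabp3, so that 3 of the 4 cells of their group above 20 CPM were these. Their summed level of 18 HC genes, 178.0 to 1018 CPM, did not exceed the median of their group, 1018 CPM. Without the 3 cells the log2 fold change of Fabp3 was -9.93 (adjusted p 4.29e-05, edgeR), and 4 markers instead of 3 were called against P60_WT SCs. The share of all genes called in that fit is not given here. Not all reads of Fabp3 can be placed with certainty. The exons of Fabp3 overlap Gm10570 and Zcchc17 on the opposite strand in 161 of 823 bases, and the processed pseudogene Fabp3-ps1 (chr10:86731987-86732388) held 0.201% to 0.628% as many reads as Fabp3 in the SCs.

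Bace2, an aspartyl protease of the cell membrane (chr16:97356742-97442936), was the SC marker still detected in nearly all failing SCs. Its level in P60_WT SCs was 1226 ± 471 CPM (SD, n = 16), from 535.9 to 2270 with a median of 1197. In failing SCs it was detected in 14 of 15 cells at 1459 ± 1562 CPM, from 0.545 to 4560 with a median of 618.4. In this group 8 of 15 cells were at or above the lowest SC and 5 were above the highest, so these cells covered a wider range than the SCs on both sides. The log2 fold change was 0.25 (SE 1.31, 95% interval -2.36 to 2.87, adjusted p 0.981), it was called in 0 of 19 other settings of the test, with adjusted p from 0.490 to 1, and it turned to between -1.30 and -0.045 in 3 of them.

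Bace2 was scarce in the other groups. It was detected in 1 of 17 P30_WT OHCs, at 130.9 CPM, and the log2 fold change against P60_WT SCs was -7.31 (SE 1.66, edgeR's quasi-likelihood test, adjusted p 0.000263). The study had already found Bace2 among its SC-enriched genes on these same wild-type libraries, so that direction is not independent evidence. The paper also cites earlier studies for Bace2 as a gene specific to Deiters cells. It was detected in 4 of 16 nascent HCs, at 27.1 ± 68.8 CPM with a highest value of 258.8, and all 16 cells were below the lowest SC. The log2 fold change there was -5.50 (SE 1.57) with an adjusted p of 0.00719, which missed the threshold and ranged from 1.51e-13 to 0.448 over 19 other settings with 3 calls.

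A single OHC-like cell decided the Bace2 value of its group. Cell 1 had 630.1 CPM, within the SC range, cell 2 had 2.44 CPM, and the other 9 were below 1 CPM. With cell 1 the log2 fold change against P60_WT SCs was -4.41 (SE 1.75, adjusted p 0.0894), and without it -11.95 with an adjusted p of 6.16e-05, while the adjusted p ranged from 1.15e-12 to 0.805 over 19 settings. Against failing SCs the difference was -4.66 (adjusted p 0.142) with cell 1 and -12.19 (adjusted p 0.000205) without it, and the range over 20 settings was 1.35e-09 to 0.533. Against P30_WT OHCs the difference was 2.90 (adjusted p 0.174, range 2.24e-05 to 0.997) with cell 1 and -4.63 (adjusted p 0.0415) without it, so its direction turned. The single OHC with Bace2 was among 7 cells of low mapping rate, and without these 7 the difference passed the threshold (adjusted p 2.24e-05). Nascent HCs and failing SCs differed by -5.75 (SE 1.59, adjusted p 0.0145, range 5.38e-10 to 0.794 over 20 settings).

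Cell 1 differed from the other OHC-like cells in further measures. It came from series A, the other 10 from series B, D and E, and it had the highest sum of the 38 SC genes in its group, 27370 CPM, and the lowest sum of the 18 HC genes, 3563 CPM. It also held the highest sums of its group for 4 lists of other cells. Fibroblast markers were at 224.4 CPM in it, and the group ran from 0 to that value, beside 0 to 10.5 CPM in P60_WT SCs and 0 to 1916 CPM in failing SCs; of 4 such genes Col1a1 and Lum were detected in OHC-like cells and Col3a1 had no count. The 5 genes of Hensen cells, Claudius cells and the outer sulcus were at 43.5 CPM, with no count of Fst or Bmp4 in OHC-like cells and at most 0.156 CPM in the P60_WT SCs. The 3 endothelial markers were at 24.6 CPM, below the highest P60_WT SC. The 6 macrophage markers were at 5.89 CPM, with no count of C1qa, C1qb or Cx3cr1 in OHC-like cells, and the other 10 cells were at 0.136 CPM or less. Their part in the result was not tested. Within series C and E the median of the failing SCs was above the converted cells. In series C 9 of 10 failing SCs had Bace2 with a median of 745.9 CPM and the single nascent HC had 116.1 CPM. In series E the single failing SC had 1205 CPM, the highest of 4 nascent HCs had 11.4 CPM and both OHC-like cells had 0. Series A held 4 failing SCs with a median of 568.6 CPM and 1 nascent HC with 45.8 CPM, but its OHC-like cell 1 was above that median. Series B and D held no failing SC.

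**Figure D3:**
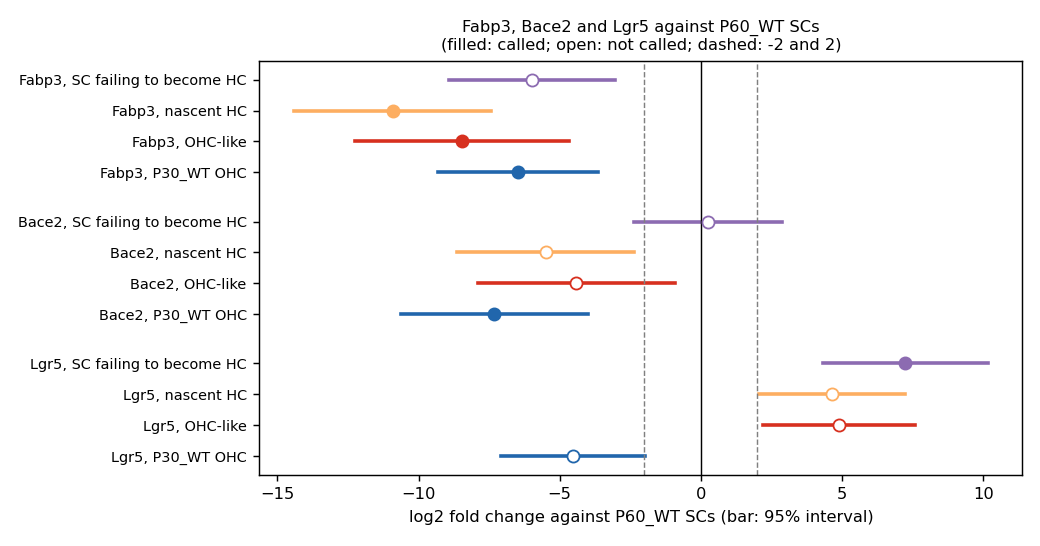
Log2 fold change of Fabp3, Bace2 and Lgr5 in each of the other 4 groups against the 16 P60_WT SCs, with 95% intervals; filled points passed both thresholds and open points did not. Fabp3 lies left of -2 in the 4 groups, Bace2 in failing SCs straddles 0, and Lgr5 lies right of 2 in the 3 induced types.

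Lgr5, a receptor for R-spondins that raises Wnt signalling and marks SCs with progenitor capacity (chr10:115450311-115587780), was nearly silent in wild-type adults and frequent in the induced cells. In P60_WT SCs it was detected in 1 of 16, cell 8, at 71.1 CPM, with 1 count in 1 other cell. In P30_WT OHCs it was detected in 1 of 17, at 2.21 CPM. It was detected in 8 of 11 OHC-like cells, 15 of 16 nascent HCs and 12 of 15 failing SCs, or 35 of the 42 induced cells.

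The levels of Lgr5 varied widely within each induced type. In OHC-like cells they were 133.8 ± 233.5 CPM (SD), from 0 to 800.8 with a median of 54.5. In nascent HCs they were 111.7 ± 133.6 CPM, from 0.123 to 465.6 with a median of 70.6. In failing SCs they were 676.2 ± 1107 CPM, from 0 to 4144 with a median of 189.7. Above the single positive SC were 5 of 11, 8 of 16 and 10 of 15 cells of these types, so most failing SCs lay outside the wild-type range. Per length the mean level of Lgr5 in failing SCs was 106.6 ± 130.8 TPM, next to 405.7 ± 435.6 TPM for Bace2 and 28.35 ± 47.85 TPM for Slc1a3 (SD, n = 15).

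Against P60_WT SCs, edgeR's quasi-likelihood test called Lgr5 higher in failing SCs, by 7.24 on the log2 scale (SE 1.47, adjusted p 0.000198). Lgr5 passed the filter on low counts only through the induced cells. The filter thus fixed the direction of its calls against wild-type cells, which are no independent support. The log2 fold change was 4.90 (SE 1.35, adjusted p 0.00559) in OHC-like cells and 4.64 (SE 1.30, adjusted p 0.00588) in nascent HCs, neither of which passed the threshold. The SC cell 8 decided these values. Without it the P60_WT SCs held 1 count in all, and Lgr5 was called higher in OHC-like cells, nascent HCs and failing SCs, with adjusted p of 3.31e-09, 2.78e-09 and 8.62e-11. Over all other settings the adjusted p ran from 3.31e-09 to 0.611 in OHC-like cells, 2.78e-09 to 0.431 in nascent HCs and 8.62e-11 to 0.961 in failing SCs. The call in failing SCs was lost, at 5.89 and an adjusted p of 0.00352, without 7 cells of low mapping rate, 5 of them of this group.

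P30_WT OHCs held 22 counts of Lgr5 in all. OHC-like cells were higher than these OHCs by 9.42 on the log2 scale (SE 1.59, edgeR's quasi-likelihood test, adjusted p 3.55e-06). This call was kept in 17 of 18 other settings, with its direction likewise fixed by the filter. From the pooled counts, the level in OHC-like cells was 591 times that in P30_WT OHCs (95% counting interval 390 to 943). The 22 counts came from 2 OHCs, and cell 1 held 5709 of the 12396 counts of the OHC-like cells. The interval treats reads as independent counts and leaves out the spread between cells. P30_WT OHCs against P60_WT SCs gave -4.52 (adjusted p 0.00392, range 0.000388 to 0.911) with SC cell 8, and without it the sign turned (adjusted p 0.0401). The induced types could not be ordered. OHC-like cells and failing SCs differed by -2.34 (95% interval -5.04 to 0.37, adjusted p 0.576), nascent HCs and failing SCs by -2.60 (95% interval -4.97 to -0.23, adjusted p 0.354) and OHC-like cells and nascent HCs by 0.26 (95% interval -2.18 to 2.71, adjusted p 1). These were called in 0 of 20 other settings each, with lowest adjusted p of 0.227, 0.127 and 0.848. Within series C the nascent HC had 358.9 CPM and the median of 10 failing SCs was 110.8 CPM, whereas in series E the medians were 64.3 CPM in 2 OHC-like cells and 70.1 CPM in 4 nascent HCs, below the 253.7 CPM of the failing SC.

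The other 2 receptors were rare or absent. Ngfr, the low-affinity neurotrophin receptor of pillar cells, had no count in any of the 75 cells, and neither had Npy, a secreted neuropeptide. For each gene this allows, group by group, up to 17.6% (P30_WT OHCs) to 27.3% (OHC-like cells) of cells with a read. Cd44, a hyaluronan receptor of the cell surface, was detected in 2 nascent HCs, at 82.4 and 229.6 CPM (cells 14 and 15), and in 2 failing SCs, at 17.3 and 439.3 CPM (cells 6 and 9). The means of these groups, 19.5 and 30.5 CPM, were at least 45.7-fold and 71.2-fold higher than in P60_WT SCs, which were all at 0, but 2 cells carried each mean and Cd44 was not among the tested genes.

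Slc1a3, the glial glutamate transporter GLAST (chr15:8634124-8710764), had no count in the 33 wild-type cells and appeared in 14 induced cells. In failing SCs it was detected in 7 of 15, from 35.6 to 895.6 CPM, and the mean was 137.5 ± 249.5 CPM (SD). It was present in 5 of 16 nascent HCs, from 76.8 to 861.6 CPM, and the mean was 117.2 ± 235.4 CPM. It was present in 2 of 11 OHC-like cells, at 575.0 CPM in cell 1 and 1.36 CPM in cell 2. The induced cells thus held either 1.36 CPM or less or more than 20 CPM, the latter in 13 of the 14 positive cells. All 14 also had Lgr5, that is, 40.0% of the 35 cells with Lgr5, and 12 of the 14 had Bace2.

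With 3 counts per cell as the floor, Slc1a3 was at least 322-fold higher in failing SCs, 274-fold in nascent HCs and 123-fold in OHC-like cells than in P60_WT SCs. In edgeR's quasi-likelihood fit the adjusted p were 0.000334, 0.000203 and 0.000533, and OHC-like cells were also at least 116-fold higher than P30_WT OHCs (adjusted p 0.000256). Since Slc1a3 passed the filter only through the induced cells, the direction of these calls was likewise fixed by it, although the fit without a filter gave the same calls. The calls in OHC-like cells rested on cell 1. Without it the adjusted p were 0.139 against P60_WT SCs and 0.111 against P30_WT OHCs, within ranges up to 0.611 and 0.625 over 17 settings each. In series E, 3 of 4 nascent HCs had Slc1a3 with a median of 179.1 CPM over the 4, the failing SC had 35.6 CPM and both OHC-like cells had none. In series D none of 7 cells had it.

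Aqp4, a water channel found in SCs and astrocytes, was detected in 3 cells, 2 nascent HCs at 39.4 and 56.2 CPM (cells 14 and 15) and 1 failing SC at 9.24 CPM (cell 12). The 2 nascent HCs were those with Cd44, and both also had Slc1a3 and Lgr5 and no Bace2. They belonged to series E and had 14120 and 13470 CPM of the 38 SC genes and 5413 and 4088 CPM of the 18 HC genes, so they lay within the range of nascent HCs. Their fibroblast markers were at 0, their macrophage markers at 0 and 0.115 CPM and their glia markers at 9.88 and 0 CPM. The failing SC with the most Cd44, cell 9, held 275.2 CPM of macrophage markers, 70.5 CPM of fibroblast markers and 62.7 CPM of genes of Hensen cells, Claudius cells and the outer sulcus, and their part in its Cd44 was not tested. Of the 6 macrophage markers Csf1r and Cd68 were detected in its group, and Ptprc, C1qa, C1qb and Cx3cr1 had no count there.

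The 38 other SC genes also included members that fell and members that rose. Of 35 that were tested, edgeR's quasi-likelihood test called 20 lower and 2 higher in P30_WT OHCs than in P60_WT SCs, 5 lower and 4 higher in OHC-like cells, 5 lower and 5 higher in nascent HCs and 2 lower and 4 higher in failing SCs. Over all tested genes the shares called lower were 10.3%, 0.655%, 1.46% and 0.787% in the same order. The shares called higher were 5.77% in OHC-like cells, 6.31% in nascent HCs and 3.38% in failing SCs. For the 2 called higher in P30_WT OHCs no share is given here. The median log2 fold changes were -5.70, -1.54, -0.79 and 0.76, beside the medians over all genes given above. Kcnj10, an inward rectifier potassium channel of SCs, was detected in all 16 P60_WT SCs at a mean of 432.4 CPM, in 0 of 11 OHC-like cells and in 1 of 15 failing SCs (log2 fold change -8.39, adjusted p 0.000413). It was detected in 2 of 16 nascent HCs, where the fall was not called (-6.51, adjusted p 0.00126). Gjb6, the connexin 30 of cochlear gap junctions, had a mean of 2262 CPM in the SCs and 241.0 CPM in failing SCs, 10 of 15 of which had it, while no OHC-like cell reached 1 CPM, and the last 2 groups differed by -10.75 (adjusted p 2.50e-06). Heyl, a Notch target, was at 0 counts in P60_WT SCs but present in 10 of 11 OHC-like cells (mean 367.5 CPM), 15 of 16 nascent HCs (mean 399.0 CPM) and 13 of 15 failing SCs (mean 705.0 CPM). The adjusted p of Heyl in edgeR's quasi-likelihood test against P60_WT SCs were 3.26e-09, 1.75e-09 and 1.62e-09 in these 3 types. Heyl was not limited to induced cells. It was detected in 6 of 17 P30_WT OHCs (mean 24.9 CPM, highest 159.3) and called higher there than in P60_WT SCs (adjusted p 1.60e-07, same test). Kcnj10 passed the filter on low counts only through the P60_WT SCs and Heyl only through the induced cells. The filter thus fixed the direction of their calls in the induced types against P60_WT SCs. Kcnj10, Gjb6 and Heyl were also named after their values were seen, so these p-values are no independent support.

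**Figure D4:**
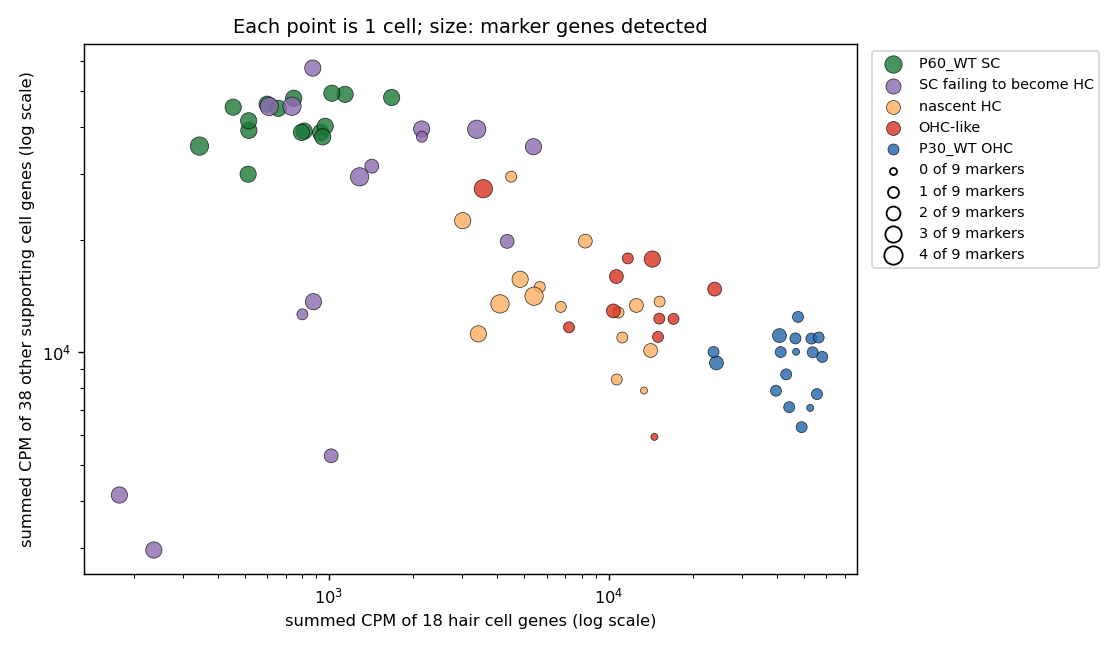
Summed CPM of 38 other SC genes against summed CPM of 18 HC genes, both on log axes, 1 point per cell, with the point size giving how many of the 9 markers the cell had. P60_WT SCs lie at 29930 to 49280 CPM of SC genes and P30_WT OHCs at 6304 to 12430 CPM. Below 6304 CPM lie 3 failing SCs and OHC-like cell 4, at 5939 CPM.

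The summed level of these genes placed all OHC-like cells and nascent HCs below the P60_WT SCs. Its median was 40900 CPM in P60_WT SCs, 31450 CPM in failing SCs, 13400 CPM in nascent HCs, 12900 CPM in OHC-like cells and 9995 CPM in P30_WT OHCs. The highest nascent HC, at 29480 CPM, and the highest OHC-like cell, at 27370 CPM, were below the lowest SC. The sums of the 18 HC genes had medians of 772.6, 1018, 7499, 14330 and 46810 CPM in the same order, a ranking that follows in part from the sorting by Myo7a and Prestin. Ocm alone had a mean of 27940 CPM in P30_WT OHCs. Of the 18, 15 were called higher in OHC-like cells, 13 in nascent HCs and 5 in failing SCs than in P60_WT SCs. Over all tested genes the shares called higher were 5.77%, 6.31% and 3.38% in the same order. The 18 include Myo7a and Slc26a5, so these counts also follow in part from the sorting. Reads of Atoh1 were at 389.7 CPM or more in each of the 42 induced cells, those with none of the 9 markers included, and at 5.50 CPM or less in P60_WT SCs.

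Markers of most other cells were low in most libraries, with genes of inner phalangeal cells, border cells and the greater ridge as the exception. The highest sum of macrophage markers was 292.0 CPM, of endothelial markers 301.5 CPM (a P60_WT SC) and of inner HC markers 108.0 CPM (a P30_WT OHC), and fibroblast markers reached 1916 CPM in 1 failing SC (cell 14), which also had the highest sum for Hensen cells, Claudius cells and the outer sulcus, 133.9 CPM. Of the 5 glia markers, Mbp was found in 9 of 11 OHC-like cells with a mean of 73.2 CPM, in 11 of 16 nascent HCs and in 2 of 15 failing SCs, and Pmp22 was detected in none of the 5 groups. The sum of the 4 genes of that list had a median of 2953 CPM in OHC-like cells (highest 7965), 1817 CPM in nascent HCs, 538.8 CPM in P30_WT OHCs, 0.440 CPM in failing SCs and 0 in P60_WT SCs. In the first 3 of these groups nearly all of it was Calb2, a calcium-binding protein also found in HCs, which was detected in all 11 OHC-like cells (mean 2713 CPM), 12 of 16 nascent HCs (mean 2072 CPM) and 15 of 17 P30_WT OHCs (mean 667.8 CPM) but in no P60_WT SC. The total count per cell ran from 4264780 to 22934062 reads, and from 5576508 to 8355421 in P60_WT SCs. OHC-like cell 4, in which none of the 9 markers was detected, had the fewest detected genes of all cells, 3348.

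The genes whose levels most resembled those of each marker were found by the Spearman correlation of log2(CPM + 1) over the 75 cells, given as a description because cells share library series, depth and group. Bace2 was closest to Lad1 (0.918), Cers2 (0.888) and Mpzl2 (0.879). Fibin was closest to Cav1 (0.884), 6330411D24Rik (0.873) and Zp1 (0.870). Fabp3 was closest to its pseudogene Fabp3-ps1 (0.845), then Drc1 (0.70) and 6330411D24Rik (0.696). Lgr5 was closest to Slc27a2 and Heyl (both 0.779) and Scrn1 (0.759). Slc1a3 was closest to Sdk1 (0.760), Lgr5 (0.716) and Fbn2 (0.703). Slc1a3 had no count in the 33 wild-type cells and Lgr5 was nearly silent there. The split between induced and wild-type cells therefore enters the value for this pair, and a correlation within the induced cells was not computed.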

How the data were processed

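The authors prepared cDNA with a Smart-Seq HT kit and deposited 1 table of raw read counts per gene for the 75 cells. Per the submitters' processing notes, FastQC 0.11.9, Trimmomatic 0.39, HISAT2 2.1.0, StringTie 1.3.5 and HTSeq 0.10.0 were used with genome build mm10. The annotation release and the strand setting of the counting are not given in the sources used here. Each column of the table matched 1 cell by its label, 0 columns were unmatched and 0 pairs of cells held identical values. A row for the vector element WPRE, 0.025% of all counts, entered neither library sizes nor tests.

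Counts were scaled by TMM and fitted with edgeR 4.0.16 (R 4.3.3, limma 3.58.1) in 1 quasi-likelihood model of the 5 groups, after a filter on low counts (minimum count 10), and p-values were adjusted over all 11443 genes by the Benjamini-Hochberg method. The sizes of the thresholds, 0.001 for p and 2 for the log2 fold change, were those of the study, which used DESeq2 and did not state whether its p was adjusted; here 0.001 was applied to the adjusted p. All tests were two-sided. Detection meant 1 CPM or more of the unscaled library, fold bounds used 3 counts per cell as the floor, and counting intervals were exact 95% Poisson intervals. TPM used exon lengths of GENCODE M21, found for 53292 genes. Gene positions are those of GRCm38. The 4 added alternatives, which left out OHC-like cell 1, P60_WT SC 8, failing SC 10, or failing SCs 6, 7 and 10, were chosen after seeing the data, and 16 others were planned. DESeq2 1.42.0 was one of these. Tables and plots were made with Python 3.11.15, numpy 2.4.6, pandas 2.3.3, scipy 1.17.1 and matplotlib 3.10.9. The genes named were the 9 markers, the 3 genes most like each marker detected in at least 10 cells, the members of the other lists with large changes, Atoh1 and Fabp3-ps1. Kcnj10, Gjb6 and Heyl were picked from their list after their values were seen. The 9 markers and the gene lists were chosen with earlier results of these data known.

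Depth was 4264780 to 22934062 counts per cell. On simulated counts for OHC-like cells against P60_WT SCs, 26 of 200 genes changed by 4 on the log2 scale were recovered among 10701 genes tested and 166 of 200 changed by 8 among 10559, with 0 false calls in each, so a change of 4 is often missed between groups of this size.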

Additional observations from a re-analysis of the deposited data

How the results depend on the processing

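Over all alternatives the fold changes of the markers kept their direction and their side of the thresholds in 609 cases, lost a call in 26, gained one in 32 and turned in 24, and the number of markers called stayed within 1.5 times in 134 cases and moved further in 21. The cause was not tested unless stated. The shares of all genes called under each alternative are not given here. The counts of markers called under them are therefore descriptions and not results about the markers. With the number of detected genes as a covariate 1 marker was called between P30_WT OHCs and P60_WT SCs and 1 between OHC-like cells and P30_WT OHCs. With counts summed per group and library series edgeR called 0 in every comparison with a wild-type group, each of which then had a single library, with 1 to 3 markers at an unadjusted p under 0.05. With the 2 groups alone, which tested fewer genes, 1 was called in failing SCs against P60_WT SCs and 0 between OHC-like cells and P30_WT OHCs, where 1 marker was tested. Without the 7 cells of low mapping rate 1 was called in failing SCs against P60_WT SCs. With limma 1 was called in OHC-like cells against P30_WT OHCs, and 1 in each of OHC-like cells and nascent HCs against failing SCs. DESeq2 called 1 in the last of these. At an adjusted p of 0.05 and a log2 fold change of 1, nascent HCs gave 5 against P60_WT SCs and 3 against failing SCs. Without OHC-like cell 1, OHC-like cells gave 1 against P30_WT OHCs and 1 against failing SCs.

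Numbers of cells do not pair them: cells with the same number in other groups had a mean correlation of -0.00175 over 137 pairs, against 0.000164 for other numbers, and 5 of 75 cells correlated best with their own number. With the replicate block OHC-like cells and nascent HCs each gave 5 calls against P60_WT SCs and OHC-like cells 1 against failing SCs, and log2 fold changes turned for Lgr5 in P30_WT OHCs against P60_WT SCs (0.60), Bace2 in failing SCs against P60_WT SCs (-0.045), Fabp3 in OHC-like cells against failing SCs (1.18) and Lgr5 and Bace2 in OHC-like cells against nascent HCs (-0.30 and -2.82).

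Other log2 fold changes turned under single settings. Lgr5 in P30_WT OHCs against P60_WT SCs was 3.05 without SC 8, a value that rests on the 1 count then left in the SCs. Bace2 in failing SCs against P60_WT SCs was -1.30 by limma and -0.18 with detected genes as covariate, and in OHC-like cells against P30_WT OHCs -0.066 with that covariate and -4.63 without OHC-like cell 1. In OHC-like cells against failing SCs, Fabp3 was 0.58 by limma, 4.16 with library series as covariate and 1.42 without failing SCs 6, 7 and 10, and Slc1a3 was 0.41 when summed. Slc1a3 in nascent HCs against failing SCs was 0.0029 with library size only, 0.38 with detected genes, 3.07 with library series and 0.83 when summed. In OHC-like cells against nascent HCs, Lgr5 was -1.35 by limma, -0.17 with library series and -0.74 without OHC-like cell 1, and Bace2 was -0.66, -1.51 and -6.42. At any count above 0 Lgr5 was detected in 16 nascent HCs and Bace2 in 15 failing SCs.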
